A study of Mus musculus with 18 samples.

Results

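A set of 8 genes of the lysosomal branch of mTORC1 signalling were followed across wild-type and Tsc2-null mouse uteri: the Rag GTPase genes Rragd, Rragc and Rraga, the folliculin gene Flcn with its partners Fnip1 and Fnip2, and the transcription factor genes Mitf and Tcfec. They were chosen by name, with earlier results of these data known. They are the rows of the deposited expression table that carry these symbols, and all 8 were found among 25791 genes. Messenger RNA levels were given as FPKM, a unit scaled for transcript length and sequencing depth, so levels can be set side by side between genes. The tissue was a cross section of uterus from mice aged 12 weeks on a mixed 129Sv X C57BL/6 background, either wild type (WT) or null for Tsc2 in the uterus only (KO). Each genotype was studied with the ovaries in place (intact), after ovariectomy at 4 weeks with no hormone (ovx), and after ovariectomy at 4 weeks followed by 8 weeks with a 0.5 mg pellet of 17β-estradiol released over 90 days (E2). Each of the 6 groups held 3 libraries, 18 in all, and the labels do not name the Cre driver, so cells that kept Tsc2 could not be told from cells that lost it. Nothing in the labels ties each library to its own animal, and the p-values therefore reflect sample-to-sample spread that may be technical.

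The TSC complex, of which TSC2 is the catalytic subunit, keeps the GTPase RHEB inactive and thereby holds back mTORC1. A separate input comes from nutrients: RagA or RagB pairs with RagC or RagD on the lysosome, the Ragulator complex anchors the pair there, and the pair recruits mTORC1. Folliculin, bound to FNIP1 or FNIP2, acts on RagC and RagD, and MiT/TFE transcription factors such as MITF and TFEB are held in the cytosol through this branch. When released to the nucleus they bind E-box motifs with the core CACGTG and raise genes of lysosomes and autophagy, and Rragd is among the genes known to respond to them.

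Stretches of 250 bases before the annotated starts of Rragc, Fnip1 and Rragd were printed because they show which of the strongly and weakly changed genes hold the E-box core, which is in capitals. The bases just after the start were not found in GENCODE transcripts of the same gene for any of these 3. Their starts and strands therefore rest on the RefSeq annotation alone. They were taken from RefSeq promoters on GRCm38.p6, where all 8 genes were matched (Tcfec under its RefSeq name Tfec), run 5′ to 3′ on the gene's own strand as annotated, which is the plus strand for all 3, and lie at chr4:123917183-123917432 for Rragc, chr11:54437929-54438178 for Fnip1 and chr4:32982748-32982997 for Rragd.
Rragc: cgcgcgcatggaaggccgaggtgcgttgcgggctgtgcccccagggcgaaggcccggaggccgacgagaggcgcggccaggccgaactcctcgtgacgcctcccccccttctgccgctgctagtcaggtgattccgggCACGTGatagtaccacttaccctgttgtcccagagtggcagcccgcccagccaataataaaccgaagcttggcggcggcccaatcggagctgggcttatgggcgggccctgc
Fnip1: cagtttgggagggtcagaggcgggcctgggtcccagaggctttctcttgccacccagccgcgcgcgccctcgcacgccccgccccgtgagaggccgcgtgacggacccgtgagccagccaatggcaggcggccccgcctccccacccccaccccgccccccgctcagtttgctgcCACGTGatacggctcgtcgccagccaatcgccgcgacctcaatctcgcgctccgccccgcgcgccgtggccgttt
Rragd: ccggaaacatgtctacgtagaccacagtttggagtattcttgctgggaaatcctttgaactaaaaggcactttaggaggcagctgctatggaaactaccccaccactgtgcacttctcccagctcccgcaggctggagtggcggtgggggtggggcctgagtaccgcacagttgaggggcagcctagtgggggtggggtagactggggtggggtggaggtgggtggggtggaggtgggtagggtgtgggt
The palindrome CACGTG was searched in windows from 250 bases before to 50 bases after each start, and 2 of the 8 genes held it, Rragc with its first base at position -112 and Fnip1 at position -75 relative to the start. In both, the letters continue as CACGTGAT, an extension searched after these sequences had been read. Rragb was searched beside the 8 genes and held CACGTG at positions -127, -36 and -3. Its level was not called between genotypes in the limma fit of all libraries. Over all 32851 RefSeq windows of this length, 7.15% held CACGTG on either strand (the motif reads the same on both) and 0.785% held CACGTGAT or its reverse complement. The related core CATGTG, or CACATG on the other strand, was in none of the windows of the 8 genes and in 14.2% of all windows. These matches describe letters in short windows and are not binding sites, and the table holds no binding data. The gene with the largest change in expression, Rragd, had none of these cores in its window.

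The targeted gene itself was read in every library. Tsc2 lay at 1.62 to 1.98 FPKM in KO intact against 2.04 to 2.51 in WT intact, at 2.39 to 3.33 in KO ovx against 3.17 to 3.49 in WT ovx, and at 1.75 to 2.42 in KO E2 against 2.38 to 2.73 in WT E2. The ranges overlapped in ovx and in E2, and the table cannot show whether the remaining signal comes from cells that kept Tsc2 or from undeleted exons. Summed FPKM ran from 216032 to 591668 per library, 4228 to 7395 genes were listed at 0, and read totals are unknown. Several libraries stood apart from their group in cell type markers: WT intact replicate 4 had a summed level of 7 stromal markers of 46.2 FPKM against 310 and 478 in its group, KO ovx replicate 4 had 575 FPKM of 10 macrophage markers against 42.6 and 56.1, and KO E2 replicate 1 had 14542 FPKM of 7 neutrophil markers against 1322 and 3088. KO ovx replicate 4 also had 140 FPKM of 5 adipocyte markers against 0.268 and 0.155 in its group. In KO E2, replicates 1 and 3 had 435 and 2381 FPKM of these adipocyte markers, and replicate 2 had 4.92. Smooth muscle markers, which identify the muscle wall of the uterus, were present in all 18 libraries at 73.4 FPKM or more. In bulk tissue, fewer cells of a type and less RNA per cell cannot be told apart.

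The largest difference between genotypes among the 8 genes was that of Rragd in ovx, which encodes RagD, a partner of RagA and RagB in the heterodimer that recruits mTORC1. The table places it on chromosome 4 from 33069972 to 33109155, and its build, like that of all positions below, is one the available sources do not name. In the intact state, its level was 0.601, 0.394 and 0.221 FPKM in the WT libraries and 2.49, 2.35 and 2.95 in the KO libraries. After ovariectomy without hormone it was 0.281, 0.455 and 0.337 FPKM in WT and 8.49, 5.45 and 12.3 in KO. Under estradiol it was 0.224, 0.211 and 0.375 FPKM in WT and 0.962, 0.519 and 0.659 in KO. Every KO library lay above every WT library of its state, and the order of the means was KO ovx, KO intact, KO E2 and then the 3 WT groups. The ranges of KO ovx, KO intact and KO E2 did not overlap each other, whereas those of neighbouring groups from KO E2 downward did. As ratios of mean FPKM, KO exceeded WT 6.41-fold in intact, 24.5-fold in ovx and 2.64-fold in E2. Rragd reached 1 FPKM only in the 6 KO intact and KO ovx libraries, so it entered the tests through them.

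**Figure D1:**
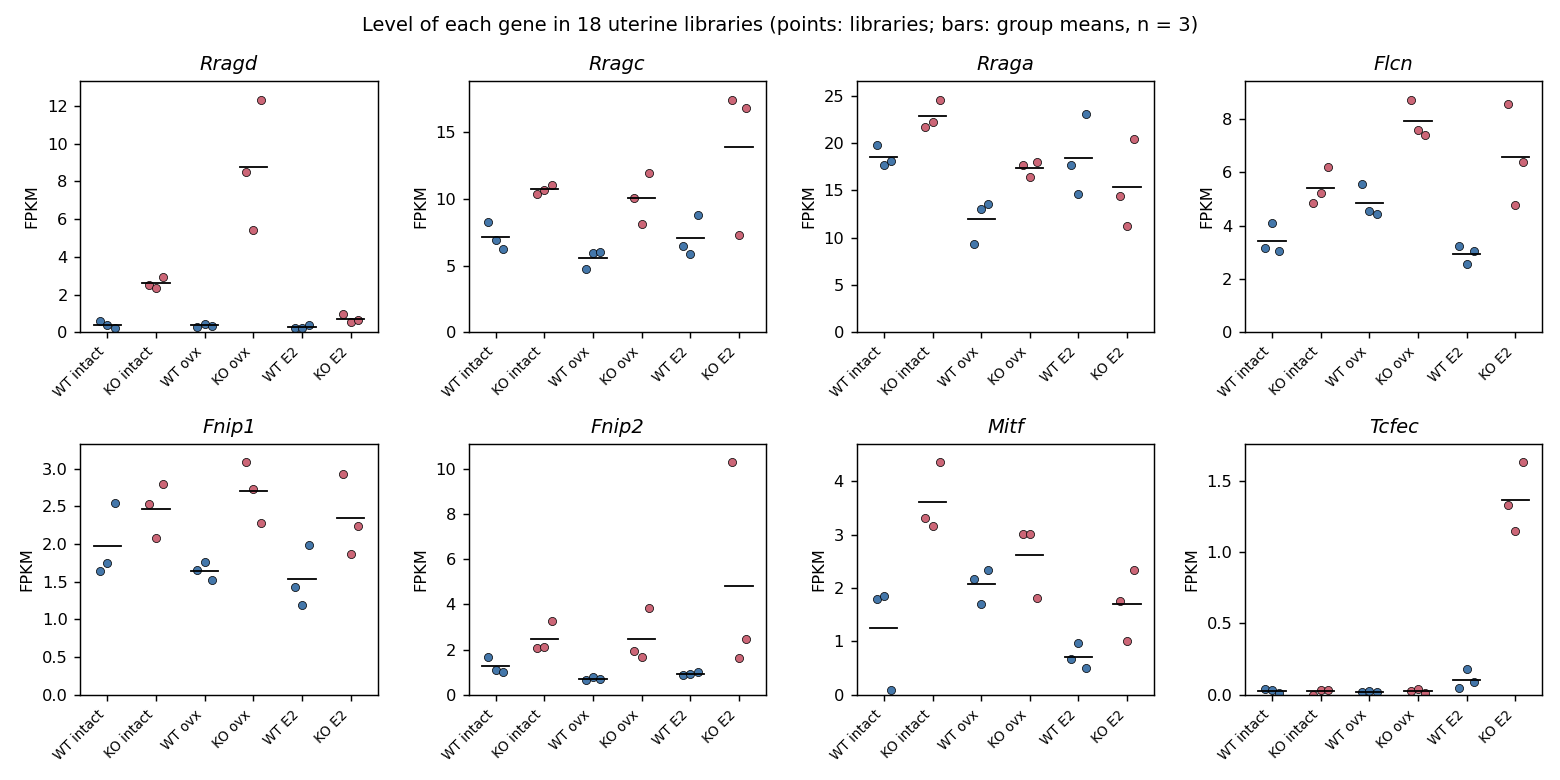
Level of each of the 8 genes in FPKM (vertical axes, each starting at 0) in the 6 groups (horizontal axes), with a point per library, WT in blue and KO in red, and bars at group means (n = 3). Rragd stands out in KO ovx, at 5.45 to 12.3 FPKM, and Tcfec in KO E2, at 1.15 to 1.63 FPKM.

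On the log2(FPKM + 1) scale used for all tests, which understates folds of low genes, Rragd rose in KO by 1.36 ± 0.21 (SE) in intact (limma, adjusted p = 0.00507) and by 2.79 ± 0.21 in ovx (adjusted p = 5.41e-06). In E2 the difference was 0.43 ± 0.21 (adjusted p = 0.239) and did not pass the threshold of 0.05. The effects themselves differed between states. That in E2 differed from that in ovx by -2.36 ± 0.29 (limma interaction, adjusted p = 0.00141), and that in intact differed from that in ovx by -1.42 ± 0.29 (adjusted p = 0.0170). The latter call was lost without KO intact replicate 3 (adjusted p = 0.0519) or without WT ovx replicate 1 (adjusted p = 0.0576). The difference between E2 and intact was -0.94 ± 0.29 (adjusted p = 0.131). Without KO ovx replicate 4 the ovx effect of Rragd was 2.53 (adjusted p = 4.15e-06). Within sets of libraries whose low values move in the same steps, called batches here, the intact effect was 1.41 (adjusted p = 0.101) and 1.27 (adjusted p = 0.725), the ovx effect 2.84 (adjusted p = 0.00443), and the E2 effect 0.27 and 0.50 (adjusted p = 0.829 and 0.545). The second intact value and the first E2 value each compare 1 library with 1, taking their spread from the other libraries, and over all genes the 2 intact fits called 19 and 5 genes. Summed markers of the uterine epithelium moved with the ovx result, at 218 to 686 FPKM in KO ovx and 85.9 to 155 in WT ovx, with 1 of 10 markers called (Cldn4, higher), and stromal and endothelial sums were lower in KO ovx, at 110 to 308 against 413 to 486 FPKM and 6.81 to 17.6 against 22.5 to 25.9 FPKM. In intact, smooth muscle and endothelial sums were higher in KO, as given with Mitf. The part of these cell types in the Rragd results was not tested.

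Rragc encodes RagC, the closest relative of RagD, and lies on chromosome 4 from 123594675 to 123614240 in the table. Its levels in intact were 8.24, 6.95 and 6.23 FPKM in WT and 10.4, 10.7 and 11.1 in KO. In ovx they were 4.75, 5.94 and 6.03 in WT and 10.1, 8.11 and 11.9 in KO. In E2 they were 6.47, 5.84 and 8.80 in WT and 17.5, 7.33 and 16.8 in KO, where KO replicate 2 fell inside the WT range. The 3 KO groups held the highest means and the 3 WT groups the lowest, with neighbours in that order overlapping throughout. The KO minus WT difference was 0.53 ± 0.26 in intact, 0.74 ± 0.26 in ovx and 0.82 ± 0.26 in E2 (limma, adjusted p = 0.291, 0.112 and 0.0649), and none passed on its own. Averaged over the 3 states, Rragc rose by 0.70 ± 0.15 (adjusted p = 0.0160). The E2 value depended on single KO libraries. Without KO E2 replicate 1 the difference was 0.62 (adjusted p = 0.306). Without KO E2 replicate 2 it was 1.19 with an adjusted p of 0.000857, in a fit that called 2235 of all tested genes against 1180. KO E2 replicate 2 also stood apart in markers, with stromal markers at 150 FPKM against 770 and 755 in its group and epithelial markers at 880 against 121 and 331. Its 5 adipocyte markers summed to 4.92 FPKM against 435 and 2381 in its group, beside 2.73 to 46.9 in WT E2. The part of these markers was not tested. Rraga, on chromosome 4 from 86221576 to 86223189, encodes RagA, a GTPase that pairs with RagC or RagD, and had the highest mean level of the 8 genes in all 6 groups. It measured 19.8, 17.7 and 18.1 FPKM in WT intact, 21.7, 22.2 and 24.6 in KO intact, 9.35, 13.1 and 13.5 in WT ovx, 17.7, 16.4 and 18.03 in KO ovx, 17.7, 14.6 and 23.0 in WT E2, and 14.4, 11.2 and 20.4 in KO E2. The KO libraries lay above the WT libraries in intact and ovx and overlapped them in E2, and apart from KO intact, which stood above WT intact, neighbours in the order of means overlapped. None of the Rraga differences between genotypes passed (0.29, 0.52 and -0.26, adjusted p = 0.520, 0.179 and 0.527), nor did the mean over states (0.18 ± 0.12, adjusted p = 0.413).

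The balance of the RagC and RagD messages therefore differed by group. Rragd made up 6.80%, 5.37% and 3.42% of the summed Rragc and Rragd FPKM in WT intact and 19.3%, 18.1% and 21.0% in KO intact. In ovx its share was 5.58%, 7.12% and 5.29% in WT and 45.7%, 40.2% and 50.8% in KO. In E2 it was 3.35%, 3.49% and 4.09% in WT and 5.22%, 6.61% and 3.77% in KO, where the ranges overlapped. Averaged over states the share was 18.5 percentage points higher in KO (exact two-sided permutation test with genotype permuted within each state, p = 0.0005 over 8000 arrangements). Within a state, 3 libraries against 3 cannot give an exact p below 0.1, which was reached in intact and ovx, and E2 gave 0.2. In KO ovx the message for RagD was thus close to that for RagC, while in every WT group it was a small fraction of it.

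**Figure D2:**
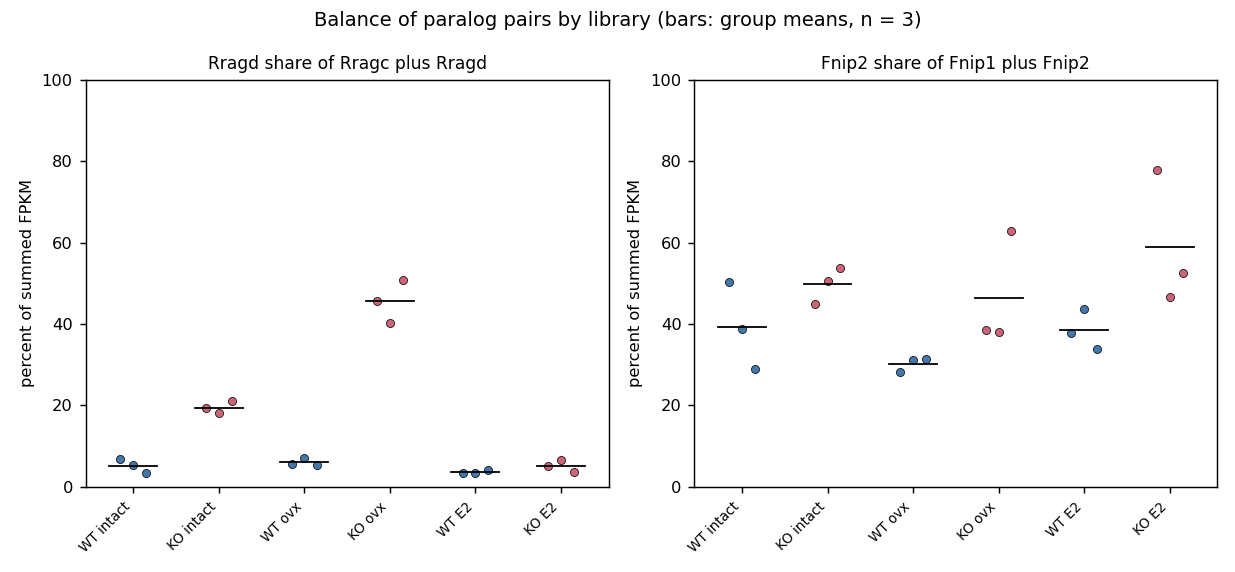
Percent of summed FPKM (vertical axes, 0 to 100) held by Rragd within Rragc plus Rragd (left) and by Fnip2 within Fnip1 plus Fnip2 (right) in the 6 groups, with a point per library, WT in blue and KO in red, and bars at group means (n = 3). The Rragd share lay at 40.2% to 50.8% in KO ovx and at 3.35% to 7.12% in the WT libraries.

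Flcn encodes folliculin, the tumour suppressor of Birt-Hogg-Dubé syndrome, and lies on chromosome 11 from 59605251 to 59623275 in the table. It was higher in every KO library than in every WT library of its state. With ovaries in place it was at 3.16, 4.09 and 3.03 FPKM in WT and 4.85, 5.24 and 6.19 in KO. It was at 5.56, 4.55 and 4.44 in WT ovx and 8.73, 7.59 and 7.42 in KO ovx, and 3.22, 2.56 and 3.04 in WT E2 and 8.56, 4.78 and 6.40 in KO E2. The means ran from KO ovx through KO E2, KO intact, WT ovx and WT intact to WT E2, and only WT ovx and WT intact did not overlap as neighbours. Flcn rose in KO by 0.92 ± 0.18 in E2 (limma, adjusted p = 0.00557), while the differences of 0.54 ± 0.18 in intact and 0.61 ± 0.18 in ovx did not pass (adjusted p = 0.122 and 0.0604). The effects did not differ detectably between states (interaction of E2 with ovx 0.31 ± 0.25, adjusted p = 0.454). Averaged over states Flcn rose by 0.69 ± 0.10 (adjusted p = 0.00259). The E2 difference was 0.87 and 0.94 inside the batches that hold both genotypes, without a call (adjusted p = 0.247 and 0.148), where the first compares 1 library with 1 and the second 2 with 2. With the E2 groups fitted alone the adjusted p was 0.166, in a limma fit that called 0 of 13898 genes, 2473 of them at an unadjusted p under 0.05. Cell type markers differed between the E2 groups as well: the epithelial genes Cdh1 and Cldn3 were lower in KO by -2.29 and -2.25, macrophage and neutrophil markers were called higher as given with Tcfec, and the osteoclast and myeloid protease gene Mmp9 was higher by 3.27. The sums of adipocyte markers ran from 4.92 to 2381 FPKM in KO E2 and from 2.73 to 46.9 in WT E2, with 0 of 5 called. The part of all these markers in the Flcn result was not tested.

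Of the folliculin partners, Fnip2, on chromosome 3 from 79149297 to 79371601, was at 1.66, 1.11 and 1.03 FPKM in WT intact and 2.06, 2.12 and 3.26 in KO intact. It was at 0.645, 0.791 and 0.703 in WT ovx and 1.92, 1.67 and 3.86 in KO ovx, and at 0.868, 0.927 and 1.02 in WT E2 and 10.3, 1.64 and 2.47 in KO E2. All KO libraries lay above all WT libraries of their state, at 1.96, 3.48 and 5.12 times the WT mean in intact, ovx and E2, and the KO groups overlapped each other while the WT groups stood apart in the order intact, E2, ovx. The differences in log2 were 0.61, 0.97 and 1.28, each ± 0.39, and none passed within a state (limma, adjusted p = 0.431, 0.156 and 0.0527). KO E2 replicate 1 alone held 10.3 FPKM, and without it the E2 difference was 0.64 (adjusted p = 0.186), whereas without KO E2 replicate 2 it was 1.69 (adjusted p = 0.00533). That replicate 1 was also the library with the highest neutrophil marker sum, whose part in the value was not tested. Averaged over states, Fnip2 rose by 0.95 ± 0.22 (adjusted p = 0.0227), and a fit with the replicate number as a block gave 0.92 without a call (adjusted p = 0.0617).

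Fnip1, on chromosome 11 from 54251680 to 54331743, had smaller differences. It was found at 1.64, 1.75 and 2.54 FPKM in WT intact, 2.53, 2.08 and 2.80 in KO intact, 1.65, 1.76 and 1.53 in WT ovx, 3.08, 2.73 and 2.28 in KO ovx, 1.43, 1.19 and 1.98 in WT E2, and 2.92, 1.87 and 2.24 in KO E2. KO stood above WT without overlap in ovx alone, and neighbouring groups overlapped throughout. No state passed (0.23, 0.48 and 0.40, each ± 0.16, limma, adjusted p = 0.498, 0.105 and 0.159). The mean over states rose by 0.37 ± 0.09 (adjusted p = 0.0354), a call that was lost when any 1 of 11 of the 18 libraries was left out, with adjusted p up to 0.0780. It was kept without WT intact replicates 1 or 4, KO intact replicate 3, KO ovx replicate 4, WT E2 replicate 5 or KO E2 replicates 2 or 3, each left out alone. Fnip2 therefore took a larger share of the summed Fnip1 and Fnip2 FPKM in KO. The share was 50.2%, 38.8% and 28.9% in WT intact and 44.9%, 50.6% and 53.8% in KO intact, ranges that overlapped. It was 28.1%, 31.1% and 31.5% in WT ovx and 38.4%, 37.9% and 62.9% in KO ovx. In E2 it was 37.8%, 43.8% and 33.9% in WT and 77.9%, 46.7% and 52.4% in KO. Averaged over states the share was 15.7 percentage points higher in KO (exact two-sided stratified permutation test, p = 0.00075), and within states the exact p was 0.2, 0.1 and 0.1.

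**Figure D3:**
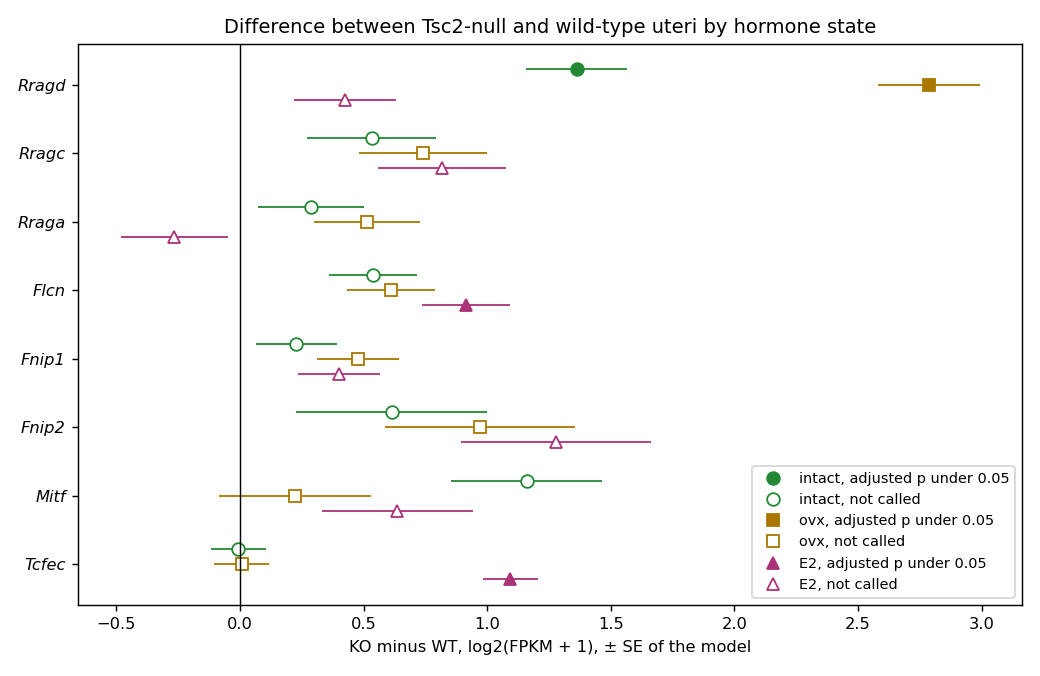
KO minus WT difference in log2(FPKM + 1) (horizontal axis) for each of the 8 genes (vertical axis) in intact (circles), ovx (squares) and E2 (triangles), with bars of ± 1 SE of the model and filled symbols for an adjusted p under 0.05. The filled symbols are Rragd in intact and ovx (1.36 and 2.79) and Flcn and Tcfec in E2 (0.92 and 1.09).

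Mitf encodes a MiT/TFE factor best known for melanocytes, mast cells and osteoclasts, and lies on chromosome 6 from 97757051 to 97971352 in the table. In intact uteri it was at 1.80, 1.85 and 0.0840 FPKM in WT and 3.32, 3.17 and 4.36 in KO, without overlap. After ovariectomy it was at 2.17, 1.70 and 2.33 in WT and 3.02, 3.02 and 1.82 in KO, which overlapped. Under estradiol it was at 0.670, 0.966 and 0.500 in WT and 1.76, 1.01 and 2.33 in KO, without overlap. KO intact had the highest mean and did not overlap KO ovx, and the lower groups overlapped as neighbours down to WT E2. The differences were 1.16 ± 0.31 in intact, 0.22 ± 0.31 in ovx and 0.64 ± 0.31 in E2 (limma, adjusted p = 0.0628, 0.754 and 0.236), none of them called. The intact value depended on WT intact replicate 4, the library that stood apart in stromal markers. Without it the difference was 0.70 (adjusted p = 0.187), and without WT intact replicate 1 or 2 it was 1.38 and 1.40 and passed (adjusted p = 0.0320 and 0.0379). Smooth muscle markers moved with it, at 73.4 to 462 FPKM in WT intact and 492 to 1713 in KO intact, with 1 of 8 called (Des, higher). Markers of blood endothelium did so too, at 1.41 to 9.99 FPKM in WT intact and 19.6 to 49.3 in KO intact, with 3 of 6 called higher (Erg, Pecam1 and Vwf). The part of either in the Mitf value was not tested. Averaged over states Mitf rose by 0.67 ± 0.18 (adjusted p = 0.0375), and the fit with a replicate block gave 0.69 (adjusted p = 0.0667). That call was kept without any 1 of the WT intact libraries, KO ovx replicate 4, WT E2 replicate 2 or KO E2 replicate 2, and lost without any 1 of the other 12 libraries, with adjusted p up to 0.0782.

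Tcfec encodes a MiT/TFE factor described mainly in macrophages and lies on chromosome 6 from 16783380 to 16848441. It was near 0 outside estradiol: 0.0395, 0.0341 and 0.0119 FPKM in WT intact, 0, 0.0346 and 0.0371 in KO intact, 0.0179, 0.0282 and 0.0173 in WT ovx, and 0.0243, 0.0419 and 0.0135 in KO ovx. Under estradiol it was at 0.0491, 0.181 and 0.0896 in WT and 1.33, 1.15 and 1.63 in KO. Both E2 groups lay above the other 4 without overlap, and KO E2 lay above WT E2, 12.8-fold by the means. Tcfec reached 1 FPKM in the 3 KO E2 libraries and nowhere else, so it entered the tests only through the group in which it was high. Its log2 difference between genotypes was 1.09 ± 0.11 in E2 (limma, adjusted p = 0.000199), -0.01 in intact and 0.01 in ovx. The E2 effect differed from that in ovx by 1.09 ± 0.16 (interaction, adjusted p = 0.00251) and from that in intact by 1.10 ± 0.16 (adjusted p = 0.00547). When the 2 E2 groups were fitted alone, with fewer libraries to estimate the spread, the adjusted p was 0.141. Averaged over states the difference was 0.37 ± 0.06 (adjusted p = 0.00552), which rests on E2.

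Markers of macrophages moved with Tcfec. The sum of 10 macrophage markers was 241 to 760 FPKM in WT E2 and 963 to 3412 in KO E2, and 2 of the 10 were called higher, Csf1r by 2.22 and Fcgr1 by 1.11, with none of the 10 at 0 in all libraries of a group. Neutrophil markers were at 69.6 to 2345 FPKM in WT E2 and 1322 to 14542 in KO E2, sums that overlapped, and 4 of 7 were called higher: Ngp by 5.22, Camp by 5.11, Elane by 2.04 and Mpo by 1.58. Relative to Csf1r, which is 1 of the 10 macrophage markers and no count of macrophages, Tcfec was at 1.53%, 2.20% and 1.37% in WT E2 and at 4.63%, 7.02% and 2.84% in KO E2, without overlap. Outside E2, where both genes are low, the ratio ran from 0 to 8.67%, with WT intact replicate 4 (8.67%) above every KO E2 library, and KO ovx replicate 2 (3.87%) and KO intact replicate 4 (3.38%) above the lowest of them. KO ovx replicate 4, with 575 FPKM of macrophage markers and 537 FPKM of Lyz2 alone, had 0.0135 FPKM of Tcfec and 0.842 FPKM of Csf1r. The part of macrophage or neutrophil number in the Tcfec result was not tested.

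**Figure D4:**
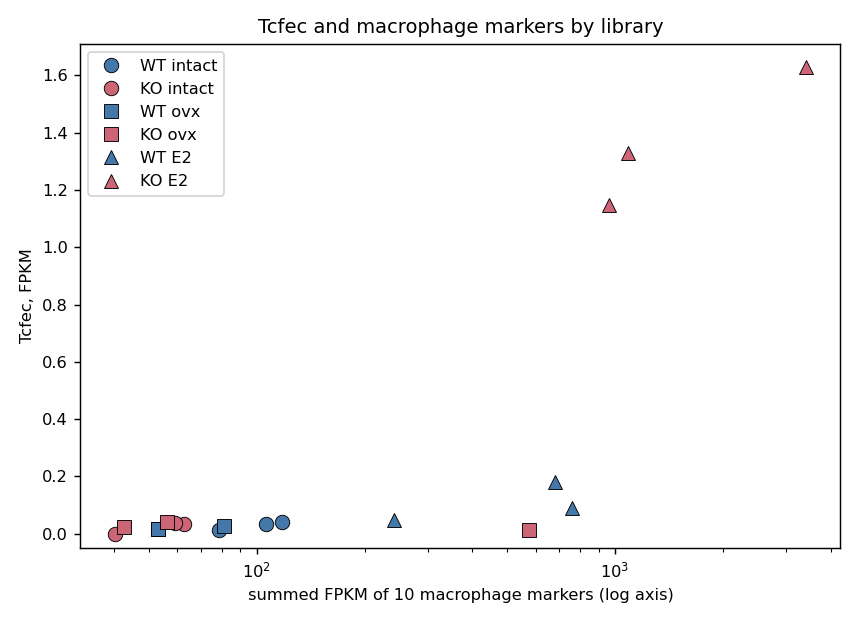
Tcfec in FPKM (vertical axis) against the summed FPKM of 10 macrophage markers (horizontal log axis) in the 18 libraries, WT in blue and KO in red, with circles for intact, squares for ovx and triangles for E2. The 3 KO E2 libraries lie at 1.15 to 1.63 FPKM of Tcfec and at 963 to 3412 FPKM of the markers, and KO ovx replicate 4 lies at 575 FPKM of the markers with Tcfec at 0.0135.

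Read as a group, 1 of the 8 genes was called in intact (Rragd), where 2.18% of the 13898 tested genes were called, 1 in ovx (Rragd), where 5.42% were called, and 2 in E2 (Flcn and Tcfec), where 8.49% were called. The shares of all tested genes called higher were 1.19%, 4.63% and 4.91% in these states. Averaged over states 7 of the 8 rose, all except Rraga, against 5.90% of all genes called and 4.17% called higher. The 8 genes were listed with earlier results of these data known, so counts of them do not test the group. Rragd and Tcfec also entered the tests only through KO libraries, in which they were high. The calls over all genes leaned upward in ovx, with 85.4% of them higher, a split that became 70.8% with median-ratio scaling and 51.3% with quantile normalization, and for the mean over states 70.6%, 60.7% and 52.9%. Under both of these scalings all KO minus WT differences over the mean of the states kept their direction for the 8 genes. By levels alone, 6 of the 8 genes stood above WT without overlap in intact, 6 in ovx and 5 in E2, beside 10.3%, 26.8% and 10.4% of all tested genes. Rragd, Flcn and Fnip2 did so in each of the 3 states, as 0.720% of tested genes did.

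A few of the genes differed between hormone states, and differently by genotype for Rragd and Tcfec. Intact libraries share no batch with ovx or E2 libraries. In contrasts of intact with either, hormone state and batch cannot be told apart. In WT, where 47.5% of all tested genes were called between E2 and ovx, Flcn fell by 0.57 ± 0.18 and Mitf by 0.85 ± 0.31 with estradiol (limma, adjusted p = 0.0171 and 0.0332), and Rraga was higher by 0.57 ± 0.21 (adjusted p = 0.0383). Cell type markers were called there too: 8 of 10 epithelial and 6 of 10 macrophage markers higher, and 4 of 7 stromal and 4 of 6 endothelial markers lower. In each of these lists 0 were called the other way, and the part of the markers was not tested. The Rraga value turned to -0.33 with quantile normalization, which moved the median gene by -0.29 in that comparison. Between WT intact and WT ovx, where 45.3% of genes were called, only Rraga passed (0.60 ± 0.21, adjusted p = 0.0324), and its value became -0.06 with quantile normalization. The E2 against ovx calls in WT were lost without WT ovx replicate 1 for all 3 genes, and also without WT ovx replicate 2, WT E2 replicate 1 or WT E2 replicate 5 for Rraga, WT E2 replicate 2 for Flcn, and WT ovx replicate 3, WT E2 replicate 1 or WT E2 replicate 5 for Mitf. The Rraga call between WT intact and WT ovx was lost without any 1 of the WT intact libraries or WT ovx replicate 1. In KO, Rragd fell by 2.46 ± 0.21 from ovx to E2 (adjusted p = 3.07e-06) and Tcfec rose by 1.20 ± 0.11 (adjusted p = 5.56e-06), with 27.1% of genes called. Of the macrophage markers, 10 of 10 were called higher in that KO comparison, with a median of 3.71. Between KO E2 and KO intact 9 of 10 were called higher, with a median of 3.87. Epithelial markers had 1 of 10 called lower and 0 higher in each of these 2 comparisons. The part of these markers was not tested. Rragd was also lower in KO intact than in KO ovx (-1.38 ± 0.21, adjusted p = 0.000401, with 15.9% of genes called) and lower in KO E2 than in KO intact (-1.08 ± 0.21, adjusted p = 0.00142), while Tcfec was higher in KO E2 than in KO intact (1.20 ± 0.11, adjusted p = 2.02e-06), with 26.0% of genes called. In WT, Rragd did not pass in any of these hormone contrasts, at differences of -0.10, 0.04 and -0.14 for E2 minus ovx, intact minus ovx and E2 minus intact. None of the 8 genes was called between WT E2 and WT intact by limma, where 13.9% of all genes were, and none had an unadjusted p under 0.05. For the interactions, 2 of the 8 genes were called between E2 and ovx (11.0% of all genes), 1 between intact and ovx (4.63%) and 1 between E2 and intact (2.01%).

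The other genes of the branch were read from lists. Of the remaining family members, Rragb, Tfeb (listed as Tcfeb) and Tfe3 (listed as Tcfe3), none was called between genotypes by limma, with unadjusted p under 0.05 for 0 of them in intact, 1 in ovx, 2 in E2 and 1 over the mean. Leaving out KO E2 replicate 2 gave 1 call in E2 and 1 over the mean. That fit called 2235 and 1836 genes in these comparisons, against 1180 and 820 with all libraries. Tcfeb, the main lysosomal regulator, came closest in ovx, from a mean of 2.13 FPKM in WT to 3.59 in KO without overlap (0.55, adjusted p = 0.0892), and Rragb differed by 0.29 there (adjusted p = 0.473). Of the Ragulator subunits and the lysosomal amino acid sensor, 5 of 6 were tested and 2 rose in ovx: Lamtor1 (listed as 2400001E08Rik) by 1.01 from 7.97 to 17.2 FPKM and Lamtor5 (listed as Hbxip) by 0.74 from 9.04 to 15.8 FPKM. In intact and E2 0 were called by limma, with unadjusted p under 0.05 for 0 and 1. The median over these 5 genes in ovx was 0.74 beside 0.09 over all genes, and leaving out KO ovx replicate 4, WT ovx replicate 1 or WT ovx replicate 3 left 0 called. Those fits called 312, 149 and 259 of all 13898 genes, against 753 with all libraries. Of 4 tested genes of GATOR1 and KICSTOR, which restrain the Rag GTPases, and 5 of GATOR2, which opposes GATOR1, none was called between genotypes by limma in a state or over their mean. At an unadjusted p under 0.05 there were 2 genes of GATOR1 and KICSTOR in ovx and 1 over the mean, and 1 of GATOR2 in each state, and with median-ratio scaling 1 of GATOR1 and KICSTOR was called lower in ovx and 1 of GATOR2 over the mean. The genotype effect on the GATOR2 gene Wdr59 differed from that in ovx by -1.55 in E2 and -1.43 in intact (limma interaction, adjusted p = 0.0217 and 0.0459). Of 5 nutrient sensors, Gatsl2 rose in ovx by 0.78 from 0.346 to 1.33 FPKM and by 0.64 over the mean of the states (adjusted p = 0.00706) and was the only sensor called. The ovx call was lost without any 1 of the 6 ovx libraries, and in intact and E2 0 sensors were called by limma, with unadjusted p under 0.05 for 2 and 1. With median-ratio scaling 2 were called in intact.

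Targets of MiT/TFE factors were read from a pair of lists. Of 20 lysosome and autophagy targets, all tested, 0 were called in intact by limma (8 at an unadjusted p under 0.05, and 2 called with median-ratio scaling), 11 rose in ovx with a list median of 0.95 beside 0.09 over all genes, and 3 rose in E2 with a median of 0.45 beside -0.05. In ovx, Atp6v0d2, a proton pump subunit, rose by 3.93 from 0.0548 to 17.4 FPKM, the sialidase Neu1 by 2.73 from 2.37 to 22.3 FPKM and the hexosaminidase subunit Hexa by 1.89 from 5.36 to 22.6 FPKM. Atp6v0d2 had WT means of 0.172, 0.0548 and 0.216 FPKM in intact, ovx and E2. It therefore entered the tests only through KO libraries, in which it was high. Leaving out KO ovx replicate 4 or WT ovx replicate 1 gave 5 calls among the 20 targets, with medians over all such fits of 0.80 to 1.09. Those 2 fits called 312 and 149 of 13898 genes, against 753 with all libraries. Without KO ovx replicate 2 there were 12 calls among the targets and 912 over all genes. In E2 the called targets were Gla (1.42), Hexa (1.30) and Lamp1 (0.85), and their number ran from 1 without WT E2 replicate 1 to 7 without KO E2 replicate 2. These 2 fits called 517 and 2235 genes in all, against 1180 with all libraries. Marker sums moved with these counts, those of the epithelium in ovx (218 to 686 FPKM in KO, 85.9 to 155 in WT) and of macrophages in E2 (963 to 3412 in KO, 241 to 760 in WT, with Csf1r and Fcgr1 called), and their part was not tested. Of 10 MITF targets in melanocytes and osteoclasts, 4 passed the filter on low values. Gpnmb, a glycoprotein of melanosomes and lysosomes, rose by 2.33 in intact and 2.45 in E2, and Mlana, a melanosomal protein, by 1.47 and 1.57. Mlana passed that filter only through KO libraries, in which it was high, so a difference was built into its being tested. With no filter, 9 of the 10 genes were tested, 1 was called in intact and 2 in E2, and the list median was 0.34 and 0.05 in place of 1.62 and 1.73. Both intact calls were lost without any 1 of the 6 intact libraries, and both E2 calls without WT E2 replicate 1, KO E2 replicate 1 or KO E2 replicate 3. In ovx none of the 4 was called by limma, and 2 had an unadjusted p under 0.05. Mlana was listed at 0 in all WT intact and WT ovx libraries, the melanosomal enzyme gene Tyrp1 was listed at 0 in all 18 libraries, and the sum of 6 melanocyte markers, Mlana among them, was 1.93 to 2.77 FPKM in KO intact against 0.188 to 0.981 in WT intact. Mlana itself made up much of that sum, with a KO intact mean of 1.79 FPKM. In E2 the sums overlapped, at 1.16 to 5.59 FPKM in KO and 1.27 to 1.52 in WT.

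The genes whose pattern over the 18 libraries was most like that of Rragd were ranked by the root mean square difference in log2(FPKM + 1) after each gene was centred on its own mean. The closest was Nceh1, a cholesteryl ester hydrolase, at 0.32, with means of 2.22 FPKM in WT ovx, 19.0 in KO ovx and 3.56 in KO E2. Ifitm7 (0.43), Atp6v0d2 (0.45), Igsf11 (0.45), Wipf3 (0.45), Gria1 (0.45), Ifitm1 (0.48), Synpr (0.50), Dio1 (0.51) and Tmed6 (0.51) followed. All 10 had their highest group mean in KO ovx and the next highest in KO intact, at 5.97 FPKM for Nceh1. Among the other members, Flcn was the nearest to Rragd at rank 172 of the tested genes (0.81), followed by Mitf at rank 381, Fnip1 at 588 and Rragc at 756, with Tcfec at 9224. The libraries that separate these genes are mainly the KO ovx ones, so this likeness restates where the levels were high.

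**Figure D5:**
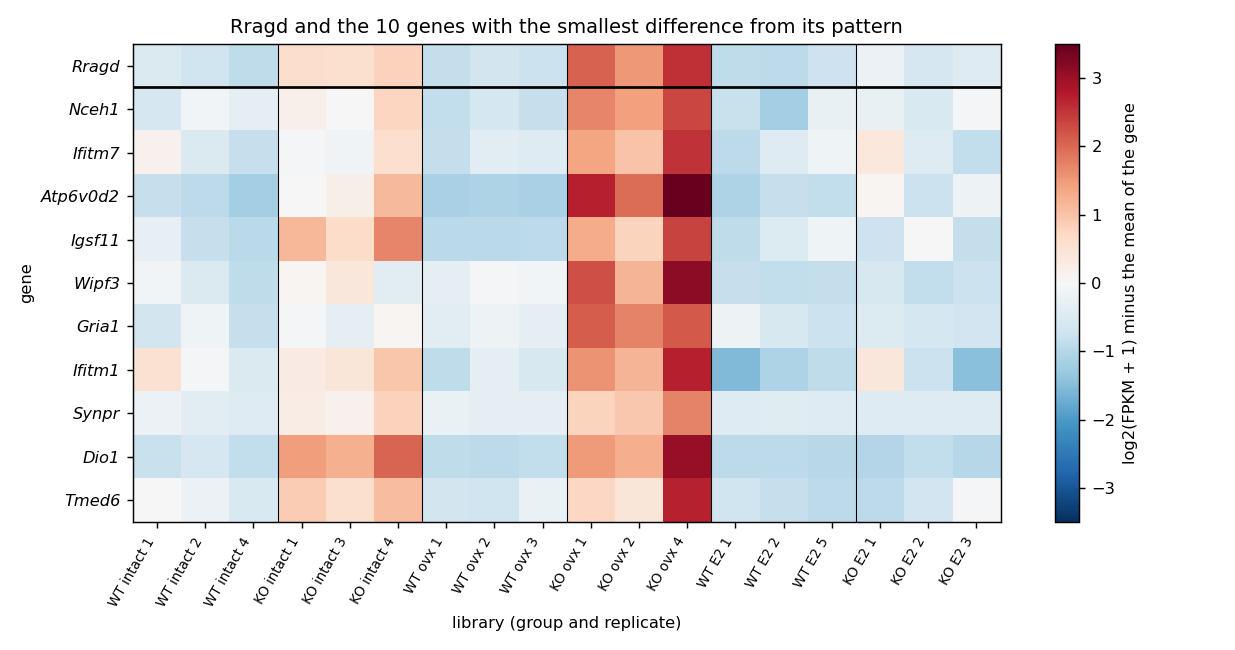
Rragd and the 10 genes nearest to its pattern (rows) in the 18 libraries (columns, ordered by group), coloured by log2(FPKM + 1) minus the mean of the gene. The 3 KO ovx columns are the reddest for Rragd and for Nceh1, whose difference from Rragd was 0.32.

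For the other members the 3 nearest genes were named where the group means spanned at least 1 on the log2 scale. Rragc was nearest to Vps26a (0.17), a retromer subunit, Arl8a (0.21), a lysosomal GTPase, and Tpp1 (0.22), a lysosomal peptidase. Fnip2 was nearest to Arl8a (0.31), Uap1l1 (0.32) and Tom1 (0.35), so Arl8a stood near both. Flcn was nearest to Spire1, Aph1c and Aph1b (0.21, 0.21 and 0.22). Mitf was nearest to Armcx1, Tspan5 and Klhdc2 (0.21, 0.23 and 0.25). Tcfec was nearest to B430306N03Rik, Gpr35 and Pik3r6 (0.10, 0.10 and 0.11), which like Tcfec had group means above 1 FPKM in KO E2 alone. Rraga and Fnip1 spanned less than 1 and have no named neighbours.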

How the data were processed

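The authors deposited FPKM values, for which Cufflinks 2.0.2 and Cuffdiff are listed per the submitters' processing notes. Aligner, annotation and build: not given in the sources used here. Gene positions in the table overlapped RefSeq on GRCm38 for 12.3% of 20000 matched symbols, so that build is used for promoter sequences only. Since FPKM hold no read counts, library depth is unknown, and precision rests on the spread between libraries.

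Values were analysed as log2(FPKM + 1). Genes at 1 FPKM or more in at least 3 of 18 libraries were tested, 13898 of 25791, all 8 members among them. A mean per group was fitted with limma 3.58.1 (R 4.3.3, eBayes with trend, two-sided), adjusted by Benjamini-Hochberg over all tested genes within a comparison, with 0.05 as the threshold. The fit was tested on simulated data. Shares were compared by exact permutation tests in Python 3.11.15. Batches were inferred from shared steps of the lowest values, since the labels name none, and their number was set to 4. The share of low values in step was 3.56% to 19.65% for pairs within a batch. For pairs in different batches with ovaries alike it was 1.78% to 3.98%, so these ranges overlapped and the borders of the batches are uncertain. Intact libraries fall in batches 1 and 2, with replicate 2 of WT and 3 of KO in batch 2. Batch 4 holds WT ovx replicate 2 and replicates 1 and 2 of both E2 groups, and batch 3 the other 7.

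Members, lists and alternatives were chosen with earlier results of these data known, so the lists are no independent evidence. Besides the members, list genes were named where called with no overlap between groups, at most 5 per list, direction and comparison, or freely in lists of 6 or fewer tested genes, and Rragd's 10 nearest genes and 3 for other members. A WT intact library with a compound number in its title was taken as replicate 4.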

Additional observations from a re-analysis of the deposited data

Results flagged for a closer look

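The effect of genotype on Rragd and on Tcfec differed between hormone states by a test of the difference itself, on the log2(FPKM + 1) scale. For Rragd, the KO minus WT difference in E2 minus that in ovx was -2.36 ± 0.29 (limma interaction, adjusted p = 0.00141), with each KO ovx library above each KO E2 library. The Rragd difference in intact minus that in ovx was -1.42 ± 0.29 (adjusted p = 0.0170), which passed the threshold in 10 of the 12 fits that leave out a library of these 4 groups. It was not called with 0.1 FPKM added in place of 1. Rragd entered the tests only through KO intact and KO ovx libraries. For Tcfec, the difference in E2 exceeded that in ovx by 1.09 ± 0.16 (adjusted p = 0.00251) and that in intact by 1.10 ± 0.16 (adjusted p = 0.00547), with the 3 KO E2 libraries above all 15 others. Tcfec entered the tests only through those 3 libraries, so a difference was built into its being tested. The call of E2 against intact was lost with 0.1 FPKM added in place of 1. In the interaction of E2 with ovx, 7 of 10 epithelial markers were called lower and 0 higher, with a median of -3.21. In the same interaction, 3 of 10 macrophage and 4 of 7 neutrophil markers were called higher and 0 lower. Over all tested genes 11.0% were called there. The macrophage marker sums given beside the Tcfec levels, and the epithelial sums beside the Rragd levels, also moved with these results. The part of all these markers was not tested.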

How the results depend on the processing

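Of 45 results on the 8 genes, 24 were called, and 17 of these kept their call and direction without each library in turn. Across all other settings, 12 of the 24 kept them. The number of members called ran, over fits that leave out a library, from 1 to 2 for KO minus WT in intact, 2 to 4 in E2, 5 to 7 over the mean of the states, 0 to 2 for E2 minus ovx in WT, 0 to 1 for intact minus ovx in WT and for E2 minus intact in WT, 2 to 4 for E2 minus intact in KO, and 0 to 1 for the interaction of intact with ovx. Of 13898 genes, the KO minus WT fits called 66 to 674 in intact, 517 to 2235 in E2 and 419 to 1836 over the mean. In WT, those for E2 minus ovx, intact minus ovx and E2 minus intact called 4889 to 5945, 4256 to 6077 and 1085 to 2638. Those for E2 minus intact in KO called 2282 to 4161, and those for the interaction 87 to 1178. Against main counts of 1 in intact and 2 in E2, quantile normalization gave 2 in intact, median-ratio scaling gave 4 in E2, the E2 groups fitted alone gave 0, and batches gave 0 and 0 in intact and 1 and 1 in E2, with Rragd in intact at 1.41 and 1.27. The limma fits of the E2 groups alone and within batches called fewer genes in all: 0 of 13898 for the E2 groups (2473 at an unadjusted p under 0.05), 19 and 5 within the intact batches, and 279 and 18 within the E2 batches, against 1180 in E2 over all libraries. Quantile normalization called 535 genes in intact, and median-ratio scaling 1341 in E2. The filter at a group mean of 5 FPKM left fewer members to test, with 1 called in E2, 3 over the mean, 1 for E2 minus ovx in KO, 1 for E2 minus intact in KO, 1 for the interaction of E2 with ovx and 0 for that of E2 with intact. Of 7533 genes tested with that filter, 779, 440, 2334, 2253, 1028 and 102 were called in these comparisons. With 0.1 FPKM added in place of 1, the interactions of intact with ovx and of E2 with intact had 0 called, beside 594 and 74 of 13898 genes. Quantile normalization gave 4 for E2 minus ovx in KO, 4 for E2 minus intact in KO and 2 for intact minus ovx in KO. It called 4888, 5772 and 3673 of all 13898 genes in these comparisons. Median-ratio scaling gave 2 for intact minus ovx in WT and 2 in KO, where it called 6518 and 2753 genes. Directions turned for Rraga in WT with quantile normalization (-0.33 for E2 minus ovx, -0.064 for intact minus ovx). They also turned for Tcfec where it was near 0: in intact 0.000659 within batch 2 and -0.0182 to 0.0104 without single libraries, and in ovx -0.0133 with batch as a term and -0.0031 to 0.0168 without single libraries. Added 0.1 FPKM moved the Tcfec mean over states to 0.95 without a call (adjusted p = 0.0758). Over the mean of the states 5 members, against 7, were called with 0.1 FPKM added, with no filter, with the replicate block and with batch as a term. For that mean these settings called 607 of 13898, 796 of 24052, 482 of 13898 and 603 of 13898 genes. The Fnip1 call there also ended with no filter on low values (adjusted p = 0.0502) and with batch as a term (adjusted p = 0.0507). That of Mitf ended with 0.1 or 0.5 FPKM added (adjusted p = 0.0926 and 0.0511), with no filter (adjusted p = 0.0650) and with batch as a term (adjusted p = 0.0629). The cause of these changes was not tested.

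Replicate numbers were shared by only 2 pairs per state, and same-numbered libraries deviated together with correlations over genes of -0.03 to 0.34, so the numbers were not taken as pairs. A fit with the replicate block left 1 member called for E2 minus ovx in WT, against 3 without it, and ended the calls of Fnip2 (0.92, adjusted p = 0.0617) and Mitf (0.69, adjusted p = 0.0667) over the mean of the states. It changed no other call over the mean or in a KO minus WT comparison. The within-batch values and the lists without single libraries were chosen after seeing the data. Batch as a term could not be fitted for contrasts of intact with ovx or E2, whose batches do not overlap. Since read depth is unknown, no counting error can be given for low values such as those of Tcfec outside E2.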
